A study of Mus musculus with 102 samples.

Results

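The comparison set epidermal stem cells of aged mice against those of adult mice, both under calorie restriction (CR), in the dark phase of the day, when mice are active and feed. It rested on 19 arrays, beside 83 other arrays of the series, chosen by the age, diet and time point in the labels. These were 4 arrays of aged CR mice and 5 of adult CR mice at zeitgeber time (ZT) 16, and 5 of aged and 5 of adult CR mice at ZT20. Zeitgeber time counts hours from lights on. Aged mice were 83 to 97 weeks old and adult mice 47 to 57 weeks. Mice of both ages were Per1-Venus BAC transgenics (C57B6/J), whose fluorescent protein reports on the clock gene Per1. CR mice received 30% less food than the ad libitum intake for 25 weeks, after an adaptation of 3 weeks with steps of 10% a week. The design text plans 4 mice per time point and diet, while 3 of these 4 groups hold 5 arrays. The labels do not say that an array is 1 mouse, so p-values measure the spread between these samples. Mice killed on 1 day all belonged to 1 time point, so day lies within time point.

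Epidermal stem cells sit in the basal layer of the skin and in the hair follicle, and renew both. Their clock is a feedback loop in which Arntl (Bmal1) and Clock switch on the Per and Cry genes, whose proteins then inhibit them. The clock times DNA replication, metabolism and stress responses over the day. CR shifts feeding and the hormones tied to it, among them glucocorticoids, and is the best known dietary means of extending lifespan in mice.

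Basal keratinocyte markers were bright: all 13 such genes measured lay above the floor for testing, and their mean level ran from 11.06 to 11.47 log2 units on the aged arrays of ZT16, against 11.22 to 11.51 on the adult arrays. At ZT20 the range was 11.26 to 11.38 on aged and 11.26 to 11.33 on adult arrays. Krt14, a basal keratin, averaged 12.52 on aged and 12.45 on adult arrays of ZT16. Of the 21 bulge markers measured, 14 lay above the floor, and Cd34, Lgr5 and Lhx2 lay below it. Of the 16 Langerhans and myeloid markers measured, 10 lay above the floor, while Cd207, the Langerhans cell lectin, lay below it. Of the 12 T cell markers measured, 11 lay above the floor, while Ptprc, the leukocyte marker, lay below it. Langerhans and myeloid markers averaged 5.62 to 5.82 on aged and 5.60 to 5.85 on adult arrays of ZT16, and 5.48 to 5.67 on aged and 5.55 to 5.81 on adult arrays of ZT20. Xist, expressed from the inactive X chromosome, was above the average of 3 genes of the Y chromosome on 2 of 4 aged and 3 of 5 adult arrays of ZT16, and on 2 of 5 aged and 2 of 5 adult arrays of ZT20. Both ages therefore hold arrays of either pattern, and the labels give no sex. Adult replicate 1 of ZT16 was less clear, with Xist at 11.18 and the Y-linked Eif2s3y at 6.54. Adult replicates 2 and 4 of ZT16, also high in Xist, held Eif2s3y at 4.26 and 4.47. The cause was not tested. Replicate 1 of the aged arrays at ZT16 stood somewhat apart, with a mean correlation of 0.969 to its group, where the 19 arrays ran up to 0.990. Other arrays of ZT16 came near it, among them aged replicate 3 (0.974) and adult replicate 5 (0.975).

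No gene differed between aged and adult CR mice in the dark phase at an adjusted p under 0.05, in either direction. The test was limma's moderated test on log2 expression with a mean for each group of age, diet and time point, averaged over ZT16 and ZT20, with Benjamini-Hochberg adjustment over 13383 genes. It called 0% of the genes, and the smallest adjusted p rounded to 1. An unadjusted p under 0.05 was reached by 158 genes (1.18%), 70 higher (0.523%) and 88 lower (0.658%) in aged mice, where an even spread of p would put 669. ZT16 alone gave 0 calls and 236 genes (1.76%) at an unadjusted p under 0.05. ZT20 alone gave 0 calls and 41 such genes (0.306%). Fitted on the 19 arrays only, the dark phase comparison also gave 0 calls, with 434 genes (3.24%) at an unadjusted p under 0.05 and a smallest adjusted p of 0.846. In that fit 777 genes (5.81%) at ZT16 and 140 (1.05%) at ZT20 reached it, again with 0 calls. Weighting the arrays by their estimated quality gave 4 calls over all arrays (Atp10a, Fam167a, Postn and Slc39a8) and 2 over the 19 (Gna14 and Postn). The median residual SD was 0.244 log2 units over all arrays, against 0.181 over the 19, so the spread shared by all arrays is wider than that of these 4 groups.

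The data bound the size of the age difference for most genes. Its 95% interval lay within a 1.5-fold change either way for 12808 of the 13383 genes (95.7%) and within a 2-fold change for 13337 (99.7%). These intervals are per gene, with no adjustment for the number of genes. The estimate itself passed 1.5-fold for 7 genes and 2-fold for 1. Aged and adult arrays did not overlap for 193 genes at ZT16 (1.44%) and for 53 genes at ZT20 (0.396%). No gene was free of overlap in the same direction at both time points. ZT16 and ZT20 share no arrays, and over all tested genes their age differences correlated at r = 0.030 and had the same sign for 46.9% of genes. That correlation is across genes, which are not independent replicates.

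Other comparisons in the same fit did make calls. Between ZT20 and ZT16 under CR, averaged over both ages, 59 genes passed (0.441%), 48 higher and 11 lower at ZT20, and 2574 (19.2%) had an unadjusted p under 0.05. This comparison was added after the age result was seen. A comparison of CR with control diet in the dark phase, averaged over both ages, was looked at together with it. The diet comparison also called 59 genes (0.441%), 10 higher and 49 lower under CR, with 707 (5.28%) at an unadjusted p under 0.05. It rested on more arrays, the 19 under CR and 17 on control diet. Its median SE was 0.081 log2 units, against 0.112 for the age comparison. On the 19 arrays alone the time comparison called 1601 genes (12%), and 4349 (32.5%) had an unadjusted p under 0.05. Tef, an output transcription factor of the clock, had the smallest p in the time comparison, at -0.75 (SE 0.10) for ZT20 minus ZT16. Tef stood at 8.70, 9.01, 8.66 and 8.86 on the aged arrays of ZT16, against 8.87, 8.94, 8.85, 8.74 and 8.83 on the adult arrays. At ZT20 it stood at 7.80, 7.82, 8.13, 8.21 and 8.05 on the aged arrays, against 8.13, 8.32, 7.88, 8.27 and 8.21 on the adult arrays. All 10 arrays of ZT20 lay below all 9 of ZT16 for this gene, a feature that choosing by the smallest p favours. Its aged and adult arrays overlapped at both times.

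**Figure D1:**
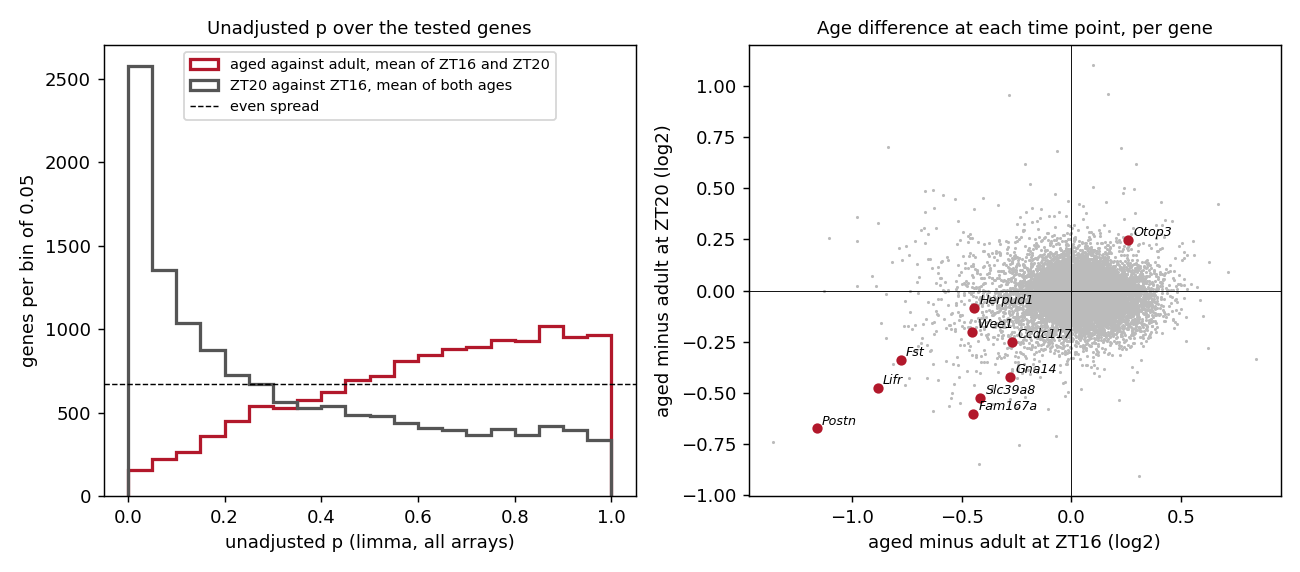
Left: number of the 13383 tested genes per bin of unadjusted p, for aged against adult (red) and for ZT20 against ZT16 (grey), with the dashed line at an even spread; 158 genes lie in the first bin for age and 2574 for time. Right: aged minus adult at ZT16 (x) and at ZT20 (y) in log2 units, a point per gene, with the 10 genes of smallest dark phase p in red; the cloud shows little relation between the times (r = 0.030).

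The 10 genes with the smallest dark phase p are given as values, since none passed the test (adjusted p of 1 for each, rounded, by limma). Of these, 9 were lower and 1 higher on average in aged mice, and all 10 had the same sign at both times, a feature that choosing by the averaged p favours. Postn, the secreted matrix protein periostin, stood first. Its levels at ZT16 were 6.48, 6.44, 7.25 and 5.85 on the aged arrays, against 8.30, 7.91, 7.26, 8.14 and 6.72 on the adult arrays. At ZT20 they were 7.74, 7.58, 7.30, 7.05 and 7.34 on the aged arrays, against 8.20, 7.48, 8.17, 8.36 and 8.17 on the adult arrays. Most aged arrays were low, but the groups overlapped at both times. The dark phase difference was -0.92 (SE 0.23), unadjusted p 0.000168, with -1.16 at ZT16 and -0.67 at ZT20. On control diet, Postn differed by -0.45 (SE 0.25) in the dark phase.

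Lifr, the receptor of leukaemia inhibitory factor, stood at 7.27, 7.68, 8.73 and 7.85 on the aged arrays of ZT16, against 8.87, 8.45, 8.14, 9.53 and 8.83 on the adult arrays. At ZT20 it stood at 8.59, 8.60, 8.24, 7.79 and 7.56 on the aged arrays, against 8.61, 9.30, 8.69, 8.10 and 8.46 on the adult arrays. At ZT16 a single aged array lay inside the adult range, and the groups overlapped at both times. The difference was -0.68 (SE 0.18). The 3 probe sets of Lifr all had negative estimates, from -0.91 to -0.65. Slc39a8, a metal ion transporter of the zinc transporter family, stood at 9.05, 8.86, 9.26 and 8.15 on the aged arrays of ZT16, against 9.94, 9.25, 9.17, 9.31 and 8.54 on the adult arrays. At ZT20 it stood at 9.40, 8.68, 9.07, 8.60 and 8.78 on the aged arrays, against 9.54, 9.74, 9.43, 9.34 and 9.11 on the adult arrays. Aged arrays were lower on average at both times, with overlap, and the difference was -0.47 (SE 0.15).

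Fst, follistatin, which binds and blocks activins, stood at 7.34, 6.70, 7.99 and 6.97 on the aged arrays of ZT16, against 8.36, 8.37, 7.49, 8.40 and 7.50 on the adult arrays. At ZT20 it stood at 7.70, 7.80, 8.01, 7.21 and 7.72 on the aged arrays, against 8.34, 8.20, 7.51, 7.99 and 8.10 on the adult arrays. The groups overlapped at both times and the difference was -0.56 (SE 0.21). Gna14, a G protein alpha subunit, stood at 7.44, 7.36, 7.49, 7.51 and 7.64 on the aged arrays of ZT20, against 7.93, 7.88, 7.96, 7.80 and 7.96 on the adult arrays. Aged and adult arrays of ZT20 did not overlap for Gna14. At ZT16 it stood at 7.91, 7.32, 7.66 and 7.39 on the aged arrays, against 7.87, 8.08, 7.79, 7.80 and 7.72 on the adult arrays, where they did overlap. Its dark phase difference was -0.35 (SE 0.13), with probe sets from -0.35 to -0.13.

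Wee1, the kinase that holds Cdk1 inactive before mitosis, stood at 9.43, 9.63, 10.41 and 9.65 on the aged arrays of ZT16, against 10.45, 10.06, 9.88, 10.44 and 10.33 on the adult arrays. At ZT20 it stood at 10.47, 10.31, 9.89, 9.82 and 10.25 on the aged arrays, against 10.55, 10.26, 10.70, 10.00 and 10.26 on the adult arrays. Aged replicate 3 of ZT16 was near the top of the adult range, and the groups overlapped at both times. The difference was -0.33 (SE 0.11), with -0.45 at ZT16 and -0.20 at ZT20. Herpud1, a membrane protein of the endoplasmic reticulum that takes part in protein degradation, stood at 9.44, 10.04, 10.15 and 10.13 on the aged arrays of ZT16, against 10.47, 10.32, 10.27, 10.47 and 10.39 on the adult arrays. All 4 aged arrays of ZT16 lay below all 5 adult arrays. At ZT20 Herpud1 stood at 10.38, 10.24, 9.97, 10.14 and 10.26 on the aged arrays, against 10.09, 10.64, 10.40, 10.25 and 10.02 on the adult arrays, with overlap, and the dark phase difference was -0.26 (SE 0.09).

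Otop3, of the otopetrin family of proton channels, was the only one of the 10 with a higher mean in aged mice, at 0.25 (SE 0.08). Otop3 had levels of 5.56, 5.84, 5.51 and 5.65 on the aged arrays of ZT16, against 5.28, 5.28, 5.58, 5.25 and 5.50 on the adult arrays. For Otop3 at ZT20 they were 5.81, 5.99, 5.60, 5.86 and 5.72 on the aged arrays, against 5.52, 5.58, 5.43, 5.58 and 5.62 on the adult arrays. Otop3 arrays of the 2 ages overlapped at both times. Fam167a had levels of 7.62, 6.75, 7.41 and 6.51 on the aged arrays of ZT16, against 8.26, 7.53, 7.43, 7.63 and 6.75 on the adult arrays. For Fam167a at ZT20 they were 6.99, 7.28, 7.55, 7.22 and 7.12 on the aged arrays, against 8.25, 7.55, 7.87, 7.70 and 7.81 on the adult arrays. Fam167a arrays of the 2 ages overlapped at both times. The Fam167a difference was -0.53 (SE 0.19). Ccdc117 had levels of 5.95, 5.77, 5.72 and 5.74 on the aged arrays of ZT16, against 6.19, 6.25, 5.58, 6.26 and 6.04 on the adult arrays. For Ccdc117 at ZT20 they were 5.68, 5.56, 5.65, 5.58 and 5.56 on the aged arrays, against 5.80, 6.08, 5.76, 5.84 and 5.81 on the adult arrays. Ccdc117 arrays of the 2 ages overlapped at ZT16 but not at ZT20. The Ccdc117 difference was -0.26 (SE 0.09). Of the 10 genes, which were chosen by their p on these arrays, 1 was free of overlap at ZT16, where 1.44% of all tested genes were, and 2 at ZT20, where 0.396% were. Nothing is read from these counts.

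**Figure D2:**
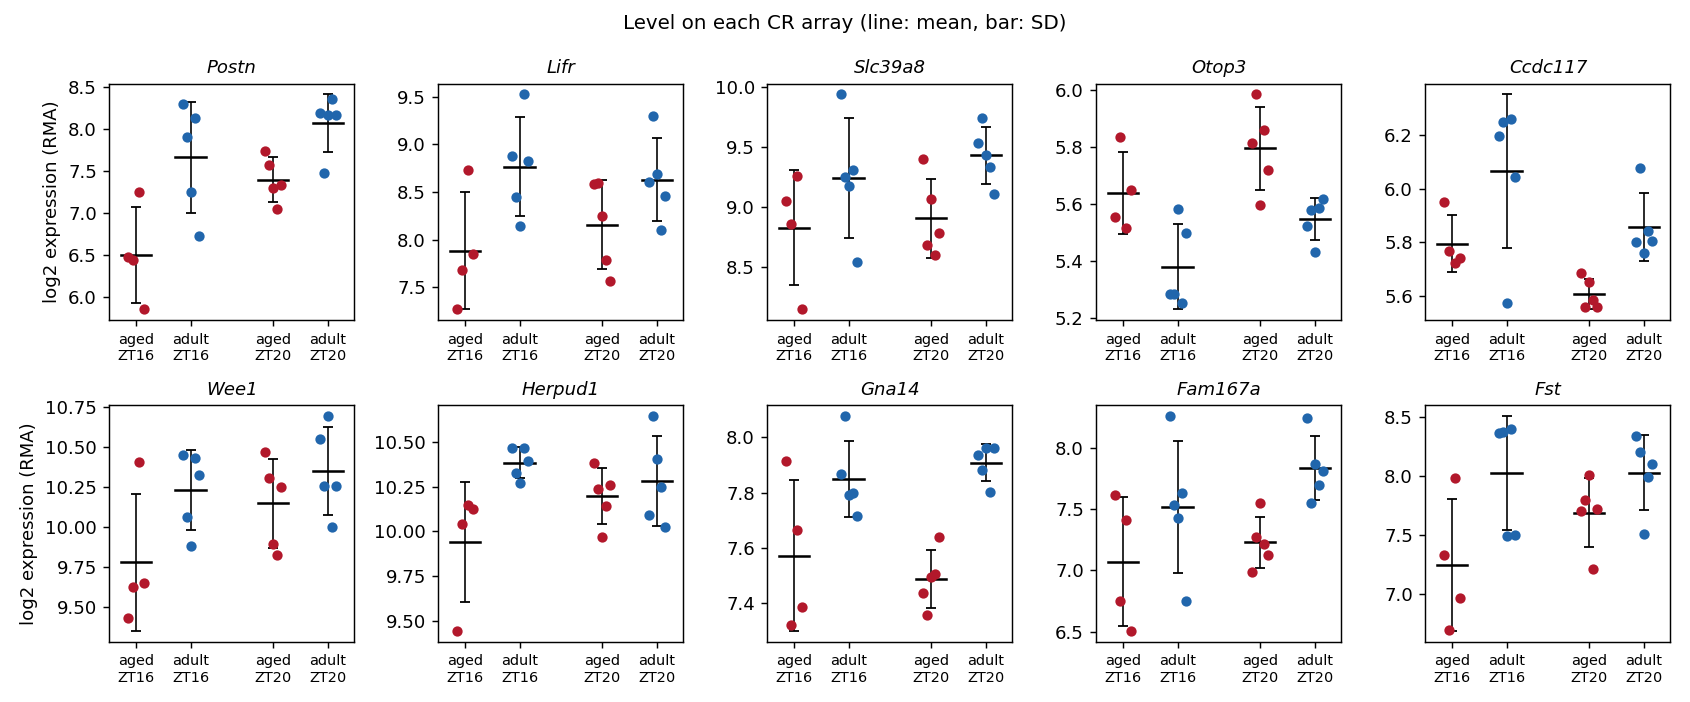
Log2 expression (y) of the 10 genes of smallest dark phase p on each CR array, aged in red and adult in blue at ZT16 and ZT20, with the mean as a line and the SD as a bar. Postn averages lie lower in aged mice at both times, yet points of the 2 ages overlap; none of the 10 passed the test.

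At single time points, the genes of smallest p that have not been named were likewise not past the test. At ZT16 Klf13, a Kruppel-like transcription factor, stood at 9.20, 9.55, 9.80 and 9.65 on the aged arrays, against 10.03, 9.89, 10.02, 10.21 and 10.18 on the adult arrays. At ZT20 Klf13 stood at 10.05, 10.29, 9.81, 9.56 and 10.10 on the aged arrays, against 10.29, 9.98, 10.02, 9.65 and 10.00 on the adult arrays. The groups overlapped at ZT20 but not at ZT16, and the Klf13 difference was -0.52 (SE 0.17) at ZT16 and -0.03 at ZT20. Zc3h8 had levels of 7.07, 7.10, 6.65 and 6.98 on the aged arrays of ZT16, against 6.63, 6.67, 6.61, 6.33 and 6.40 on the adult arrays. For Zc3h8 at ZT20 they were 6.78, 6.42, 6.73, 7.13 and 6.50 on the aged arrays, against 6.59, 6.48, 6.90, 6.73 and 6.49 on the adult arrays. Zc3h8 arrays of the 2 ages overlapped at both times. Zc3h8 differed by 0.42 (SE 0.14) at ZT16 and 0.08 at ZT20. Tepp had levels of 5.26, 5.03, 5.40 and 4.99 on the aged arrays of ZT16, against 4.92, 4.87, 4.94, 4.94 and 4.76 on the adult arrays. For Tepp at ZT20 they were 4.82, 4.96, 4.99, 4.72 and 5.01 on the aged arrays, against 4.93, 4.80, 5.03, 4.92 and 4.90 on the adult arrays. Tepp arrays of the 2 ages overlapped at ZT20 but not at ZT16. Tepp differed by 0.28 (SE 0.09) at ZT16 and -0.02 at ZT20. At ZT20 Npy1r, a receptor of neuropeptide Y, stood at 5.86, 5.67, 5.69, 5.97 and 5.35 on the aged arrays of ZT20, against 5.88, 6.86, 6.50, 6.30 and 5.90 on the adult arrays. At ZT16 Npy1r stood at 5.94, 6.03, 6.12 and 6.29 on the aged arrays, against 6.58, 6.33, 5.86, 6.10 and 6.13 on the adult arrays, with overlap. The ZT20 difference of Npy1r was -0.58 (SE 0.19), with 1 aged array inside the adult range, and the ZT16 difference was -0.11. Pdp2, a phosphatase that activates pyruvate dehydrogenase, had levels of 5.52, 5.74, 5.51 and 5.62 on the aged arrays of ZT16, against 5.46, 5.86, 5.67, 5.46 and 5.30 on the adult arrays. For Pdp2 at ZT20 they were 5.54, 5.74, 5.50, 5.27 and 5.43 on the aged arrays, against 6.23, 5.51, 5.88, 5.70 and 5.99 on the adult arrays. Pdp2 arrays of the 2 ages overlapped at both times. Pdp2 differed by -0.36 (SE 0.14) at ZT20.

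The change of the age difference between ZT16 and ZT20 was tested directly and called 0 of 13383 genes, with 73 (0.545%) at an unadjusted p under 0.05. On the 19 arrays it also called 0, with 351 (2.62%). The smallest p belonged to Pex26, a peroxisome assembly protein, at -0.44 (SE 0.17) for the ZT20 difference minus the ZT16 difference. Pex26 had levels of 9.32, 9.51, 9.55 and 9.58 on the aged arrays of ZT16, against 9.42, 9.44, 9.18, 9.28 and 9.14 on the adult arrays. For Pex26 at ZT20 they were 8.98, 8.94, 9.28, 9.30 and 8.83 on the aged arrays, against 9.19, 9.34, 9.33, 9.28 and 9.42 on the adult arrays. Pex26 arrays of the 2 ages overlapped at both times. This change was -0.51 for Klhdc8b, -0.54 for Samd1, 0.61 for Grhl1, -0.54 for Prim1 and -0.30 for Tepp, none of which passed. Klhdc8b had levels of 7.60, 7.86, 7.25 and 7.82 on the aged arrays of ZT16, against 7.34, 7.42, 7.47, 7.31 and 7.01 on the adult arrays. For Klhdc8b at ZT20 they were 7.03, 7.20, 7.62, 7.64 and 7.40 on the aged arrays, against 7.48, 7.57, 7.51, 7.68 and 7.54 on the adult arrays. Klhdc8b arrays of the 2 ages overlapped at both times. Samd1 had levels of 8.74, 9.06, 8.62 and 8.66 on the aged arrays of ZT16, against 8.62, 8.67, 8.26, 8.26 and 7.91 on the adult arrays. For Samd1 at ZT20 they were 8.41, 8.31, 8.44, 8.54 and 8.30 on the aged arrays, against 8.31, 8.28, 8.69, 8.55 and 8.73 on the adult arrays. Samd1 arrays of the 2 ages overlapped at both times. Grhl1, a transcription factor of the epidermis, had levels of 9.0004, 8.67, 8.58 and 8.40 on the aged arrays of ZT16, against 9.02, 8.86, 9.06, 9.20 and 9.05 on the adult arrays. For Grhl1 at ZT20 they were 9.29, 9.09, 9.29, 9.36 and 9.58 on the aged arrays, against 9.40, 9.31, 9.01, 8.82 and 8.91 on the adult arrays. Grhl1 arrays of the 2 ages overlapped at both times. Prim1, a primase subunit, had levels of 9.58, 9.40, 9.13 and 9.11 on the aged arrays of ZT16, against 9.17, 9.36, 8.91, 8.51 and 8.74 on the adult arrays. For Prim1 at ZT20 they were 8.71, 8.41, 9.23, 9.04 and 8.90 on the aged arrays, against 8.96, 9.09, 9.16, 8.85 and 9.09 on the adult arrays. Prim1 arrays of the 2 ages overlapped at both times.

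Of the 18 core clock genes tested, 0 passed the test between the ages in the dark phase, at ZT16 or at ZT20. Of the 18, 14 had a lower and 4 a higher mean in aged mice, with a median difference of -0.09 log2 units, beside 0.01 over all tested genes. Without aged replicate 1 of ZT16 the median was -0.02. That array held the lowest Arntl value of the 19, and Arntl stood at 6.70, 8.45, 8.88 and 8.96 on the aged arrays of ZT16, against 8.30, 8.89, 9.07, 9.31 and 8.90 on the adult arrays. At ZT20 Arntl stood at 9.26, 9.21, 8.93, 8.94 and 9.36 on the aged arrays, against 9.47, 8.56, 8.67, 8.82 and 9.40 on the adult arrays, so the ages overlapped at both times. Its dark phase difference was -0.25 (SE 0.30).

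Among the repressors of the clock, Per2 had the smallest p of the list, with 6.07, 6.70, 6.96 and 6.57 on the aged arrays of ZT16, against 6.96, 6.59, 6.91, 7.01 and 6.83 on the adult arrays. At ZT20 Per2 stood at 6.29, 6.20, 5.80, 6.21 and 5.87 on the aged arrays, against 6.68, 6.11, 6.50, 6.04 and 6.43 on the adult arrays. The ages overlapped at both times, and the difference was -0.28 (SE 0.12), unadjusted p 0.0242. On control diet it was 0.25 (SE 0.13), and the difference between the diets was -0.53 (SE 0.18), which did not pass. Cry1 differed by -0.42 (SE 0.24), with adult replicate 1 of ZT20 at 7.99 as the highest value. Per1 stood at 7.94, 8.45, 8.69 and 8.85 on the aged arrays of ZT16, against 9.07, 9.01, 8.97, 8.92 and 9.28 on the adult arrays. At ZT20 Per1 stood at 9.64, 9.54, 9.31, 9.0003 and 9.55 on the aged arrays, against 9.28, 9.44, 9.40, 9.16 and 8.95 on the adult arrays, with overlap. The aged arrays of ZT16 all lay below the adult ones for Per1, with a difference of -0.57 (SE 0.23), while the ZT20 difference was 0.16. Endogenous Per1 and the transgene reporter were not told apart.

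Among the output factors of the clock, Dbp differed by 0.02 (SE 0.20), Hlf by 0.05 (SE 0.13), Tef by -0.10 (SE 0.10) and Nfil3 by -0.29 (SE 0.19). Clock itself differed by -0.01 (SE 0.14) and its relative Npas2 by 0.00 (SE 0.10). In the comparison of ZT20 with ZT16 over both ages, 3 of the 18 clock genes passed the test as lower and 0 as higher. The 3 were Per2 (-0.50), Tef (-0.75) and Hlf (-0.53), where 0.0822% of all tested genes passed as lower. On the 19 arrays alone 8 of the 18 passed, where 12% of all tested genes did. In the comparison of CR with control diet, 6 of the 18 passed as lower, among them Nr1d2 (-0.71) and Per3 (-1.03). Of all tested genes, 0.366% passed as lower there.

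**Figure D3:**
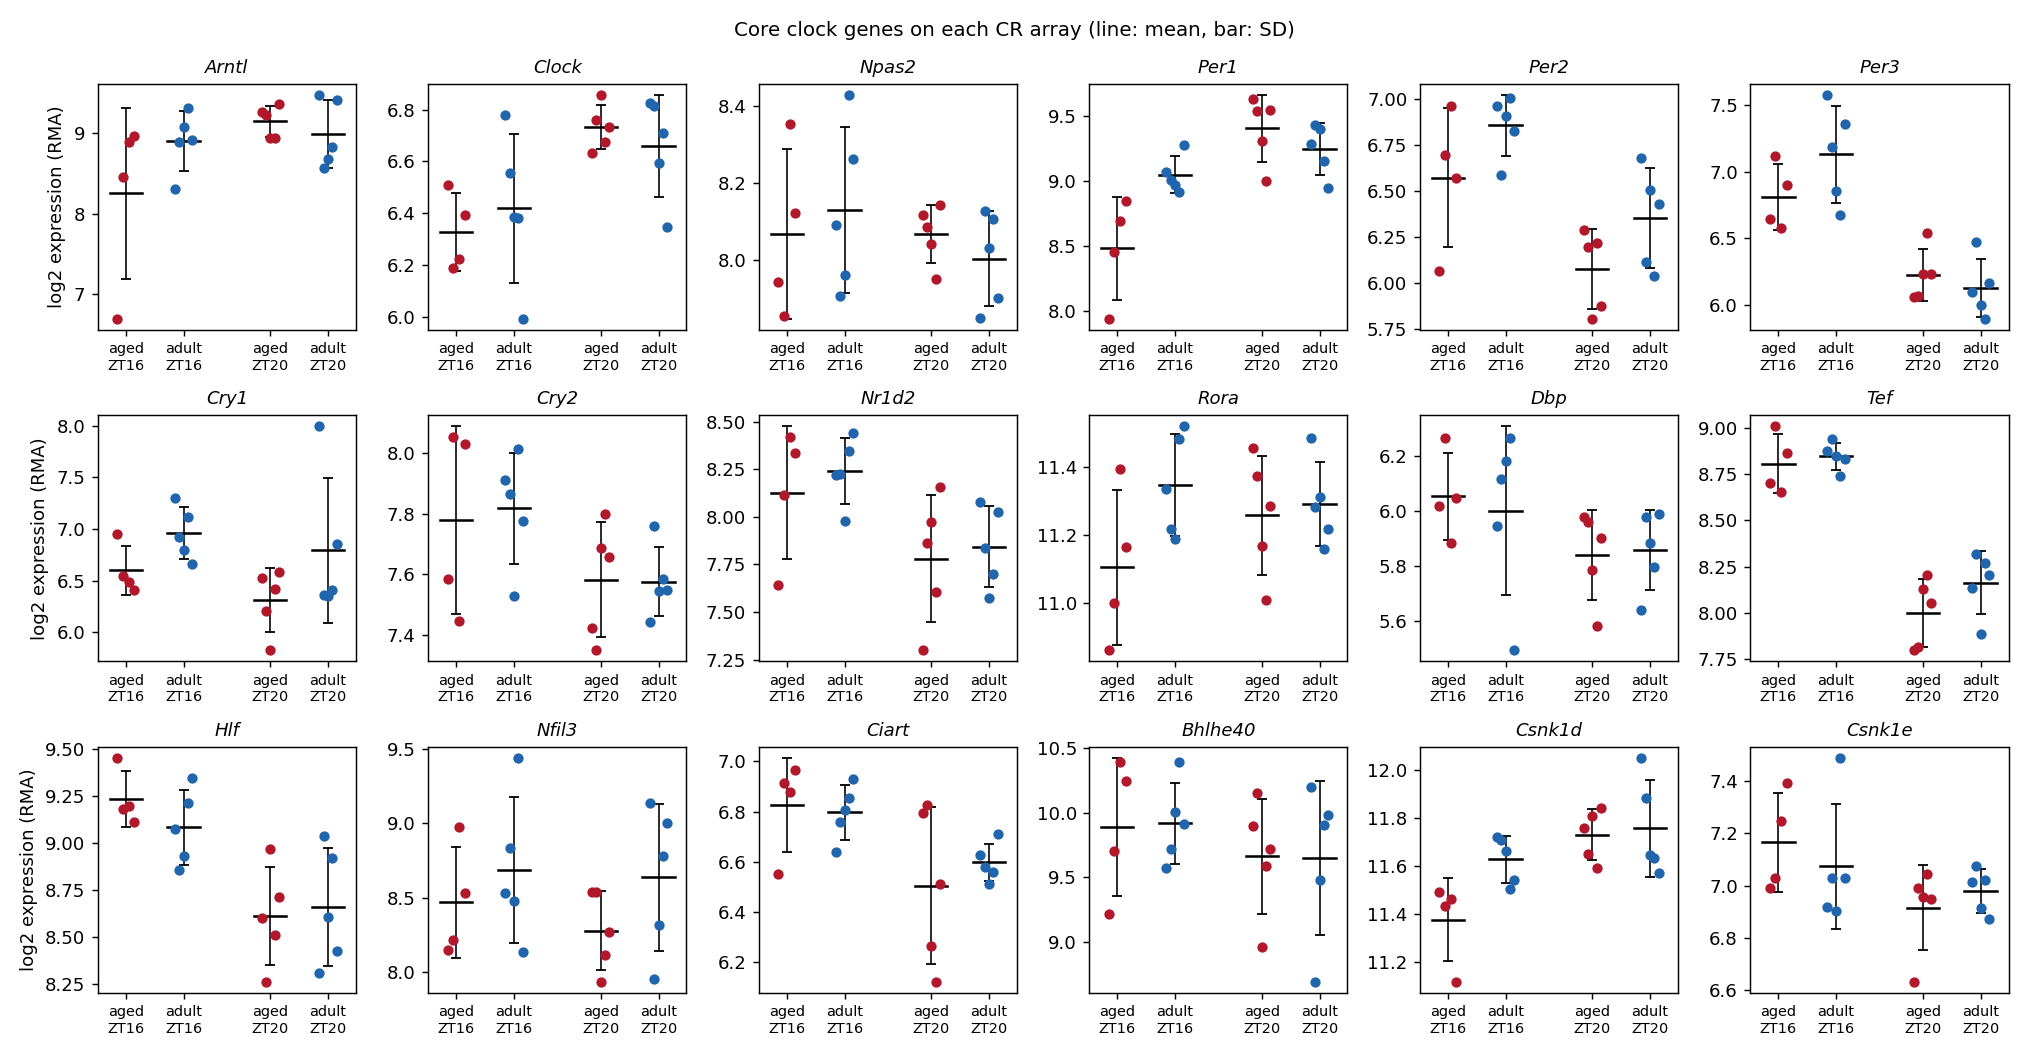
Log2 expression (y) of all 18 tested core clock genes on each CR array, aged in red and adult in blue at ZT16 and ZT20, with the mean as a line and the SD as a bar. Tef lies lower at ZT20 than at ZT16 in both ages, whereas aged and adult arrays of a time point mostly overlap.

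The 49 gene lists held 658 tested genes, and 0 members of any list passed in the dark phase, at ZT16 or at ZT20. List medians lay below 0 for 25 of the 49 and beyond 0.1 log2 units either way for 5. At ZT16, 13 lists passed 0.1, and at ZT20, 3 did. Over all tested genes the median was 0.04 at ZT16, with 8363 of 13383 higher, and -0.02 at ZT20, with 7807 lower. The lists described next were picked after their medians were seen. Glucocorticoid targets had the lowest median of the lists with at least 8 tested members, -0.20, with 12 of 13 members lower in aged mice. It was -0.37 at ZT16 and -0.04 at ZT20. Without aged replicate 1 of ZT16 it was -0.11 in the dark phase and -0.25 at ZT16. The ZT16 median was -0.17 without adult replicate 4, and the ZT20 median ran from -0.10 to 0.01 with 1 array left out. Tsc22d3, a glucocorticoid-induced inhibitor of inflammation, had levels of 8.14, 9.15, 9.87 and 9.41 on the aged arrays of ZT16, against 10.33, 9.86, 9.19, 10.02 and 9.60 on the adult arrays. For Tsc22d3 at ZT20 they were 9.53, 9.31, 9.24, 9.10 and 8.91 on the aged arrays, against 9.52, 9.83, 9.91, 9.07 and 9.09 on the adult arrays. Tsc22d3 arrays of the 2 ages overlapped at both times. The dark phase difference of Tsc22d3 was -0.46 (SE 0.19). Sgk1, a kinase induced by glucocorticoids, differed by -0.38 (SE 0.19). On control diet the list median was 0.02. The dark phase median of -0.20 is the difference of Per1, so this list and the core clock list share a member.

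Hair follicle bulge markers had a median of -0.17, with 11 of 14 members lower, and ranged from -0.24 to -0.12 when each array was left out in turn. In the light phase (ZT4 and ZT8) under CR their median was -0.15, with 12 of 14 lower. Postn and Fst belong to this list. Their mean level over the 21 measured ran from 6.18 to 6.49 on aged and 6.35 to 6.67 on adult arrays of ZT16, and from 6.31 to 6.44 on aged and 6.42 to 6.57 on adult arrays of ZT20. Both pairs of ranges overlap. Upper follicle markers had a median of -0.15, with -0.33 at ZT16 and 0.03 at ZT20. The dark phase median was -0.07 without aged replicate 2 of ZT16, -0.24 without aged replicate 3 of ZT16 and -0.09 without aged replicate 4 of ZT20, and the ZT20 median ran from -0.03 to 0.09 with 1 array left out. Sostdc1, a secreted inhibitor of BMP and Wnt signals, differed by -0.45 (SE 0.18) and the keratin Krt79 by -0.56 (SE 0.34). Fewer cells of a type and less RNA per cell cannot be told apart in such bulk samples. Basal keratinocyte genes had a median of -0.02, with Krt15 at 0.08 (SE 0.05). JAK-STAT genes had a median of -0.09, with 16 of 18 lower and a median of -0.05 without aged replicate 1 of ZT16. Among them was Cish, an inhibitor of cytokine signalling, at a difference of -0.29 (SE 0.14).

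Cholesterol synthesis genes had a median of 0.13, with 15 of 17 members higher in aged mice, and at ZT20 all 17 were higher with a median of 0.19. The ZT20 median was 0.11 without aged replicate 5, and 0.31, 0.08 and 0.12 without adult replicates 1, 2 and 4. The dark phase median was 0.20 without adult replicate 1 of ZT20, and the ZT16 median ran from -0.04 to 0.20 with 1 array left out. Hmgcs1, an early enzyme of the pathway, stood at 9.19, 9.20, 8.15, 8.82 and 8.91 on the aged arrays of ZT20, against 7.29, 7.51, 8.64, 7.99 and 7.33 on the adult arrays. The difference at ZT20 was 1.10 (SE 0.38), with 1 aged array inside the adult range. At ZT16 Hmgcs1 stood at 5.87, 8.14, 7.19 and 8.82 on the aged arrays, against 6.51, 7.13, 8.85, 6.62 and 7.92 on the adult arrays, where both ages spread over more than 2 log2 units. Msmo1, a sterol demethylating enzyme, differed by 0.96 (SE 0.36) at ZT20 and by 0.16 at ZT16. In the dark phase the probe set used for Msmo1 gave 0.56, while another above the floor gave 0.16. On control diet the list median was -0.11. In the light phase under CR it was 0.16, with 16 of 17 higher.

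Glycolysis genes had a median of 0.09 with 15 of 16 higher, and oxidative phosphorylation genes 0.05 with 17 of 20 higher. The glycolysis median was 0.16 at ZT16 (15 of 16 higher) and 0.01 at ZT20 (10 of 16 higher). The oxidative phosphorylation median was 0.12 at ZT16 (20 of 20 higher) and -0.01 at ZT20 (14 of 20 lower). Over all tested genes the median was 0.04 at ZT16 and -0.02 at ZT20. The dark phase glycolysis median was 0.05 without aged replicate 2 and 0.06 without aged replicate 4 of ZT16. That of oxidative phosphorylation was 0.08 without aged replicate 3 of ZT16. With 1 array left out, the glycolysis median ran from 0.10 to 0.24 at ZT16 and from -0.05 to 0.07 at ZT20. That of oxidative phosphorylation ran from 0.06 to 0.17 at ZT16 and from -0.06 to 0.01 at ZT20. Aldoa, a glycolytic aldolase, differed by 0.10 (SE 0.08), Pfkl by 0.19 (SE 0.17), the respiratory subunit Ndufa4 by 0.17 (SE 0.15) and Sdhb by 0.14 (SE 0.13). DNA replication genes had a median of 0.07, 0.23 at ZT16 and -0.04 at ZT20. With 1 array left out the dark phase median ran from 0.04 (without adult replicate 4 of ZT16) to 0.12 (without aged replicate 4 of ZT16), and it was also over 1.5 times as large without aged replicate 3 of ZT16 (0.10), aged replicate 2 of ZT20 (0.11) or adult replicate 1 of ZT16 (0.11). The ZT16 median was 0.15 without aged replicate 2 and 0.10 without adult replicate 4, and the ZT20 median ran from -0.15 to 0.03, so its sign is not settled. Rrm1, a subunit of ribonucleotide reductase, stood at 9.57, 9.73, 9.81 and 9.85 on the aged arrays of ZT16, against 9.35, 9.49, 9.40, 9.05 and 9.48 on the adult arrays. At ZT20 Rrm1 stood at 9.28, 9.24, 9.54, 9.36 and 9.43 on the aged arrays, against 9.43, 9.12, 9.49, 9.29 and 9.48 on the adult arrays. The ages overlapped at ZT20 but not at ZT16, and the dark phase difference was 0.20 (SE 0.12), with 0.39 at ZT16 and 0.01 at ZT20. Chaf1b, of chromatin assembly, differed by 0.19 (SE 0.13). Unfolded protein response genes had a median of 0.06 (0.03 without adult replicate 5 of ZT16). Their median was 0.12 at ZT16 (0.06 to 0.20 with 1 array left out). At ZT20 it was -0.05, with 15 of 21 lower. Pdia4, a protein disulfide isomerase, differed by 0.15 (SE 0.08) in the dark phase, and Herpud1, given above, lay on the other side of 0.

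Among p53 targets and cell cycle inhibitors the median was -0.02. Trp53inp1 differed by -0.47 (SE 0.20) and Cdkn2b, an inhibitor of Cdk4 and Cdk6, by 0.26 (SE 0.12). Interferon response genes had a median of -0.02, with the guanylate binding protein Gbp2 at -0.61 (SE 0.26) and Irf9 at -0.24 (SE 0.12). Chemokines and cytokines had a median of 0.03, with Il18 at 0.36 (SE 0.17) and the alarmin Il33 at 0.37 (SE 0.17). Matrix genes had a median of -0.06 (-0.10 to -0.02 with 1 array left out), with Col4a1, a basement membrane collagen, at -0.31 (SE 0.14).

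**Figure D4:**
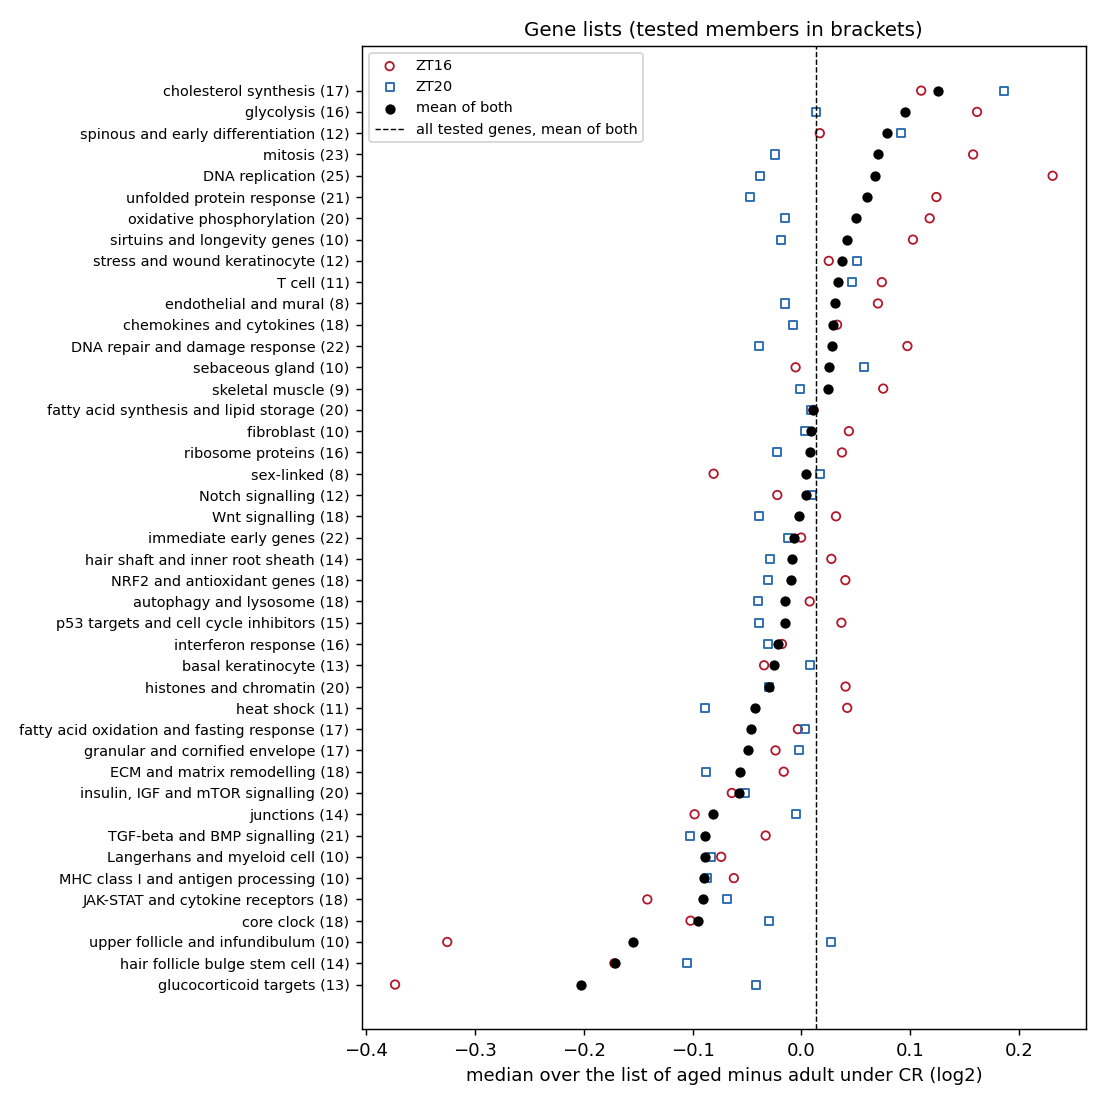
Median over each list of the aged minus adult difference under CR (x, log2 units), for lists with at least 8 tested members (y, number in brackets), at ZT16 (red circles), ZT20 (blue squares) and averaged (black). Glucocorticoid targets lie lowest and cholesterol synthesis highest, with medians of -0.20 and 0.13; the dashed line is the median of all tested genes.

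Whether the age difference depends on diet was tested as the difference under CR minus that on control diet, at ZT16 and ZT20. It called 0 of 13383 genes, with 209 (1.56%) at an unadjusted p under 0.05. On control diet alone the age difference gave 0 calls, while 219 genes (1.64%) reached an unadjusted p under 0.05 and the smallest adjusted p was 0.229. The smallest p of the diet difference fell on Parpbp, Cdkn3, Tacc3, Maob, Racgap1 and Kif14. Cdkn3, a phosphatase of cell cycle kinases, differed by 0.40 (SE 0.21) under CR and -0.56 (SE 0.22) on control diet. Tacc3, a spindle protein, differed by 0.06 (SE 0.11) under CR and -0.43 (SE 0.12) on control diet. Racgap1, a regulator of cell division, differed by 0.16 (SE 0.20) under CR and -0.71 (SE 0.21) on control diet. Parpbp differed by 0.19 (SE 0.15) under CR and -0.48 (SE 0.15) on control diet, and the kinesin Kif14 by 0.08 (SE 0.07) under CR and -0.21 (SE 0.07) on control diet. Maob, a monoamine oxidase, differed by 0.34 (SE 0.19) under CR and -0.48 (SE 0.20) on control diet. Cdkn3 had levels of 7.95, 7.37, 6.72 and 6.84 on the aged arrays of ZT16, against 6.74, 6.32, 6.71, 6.19 and 6.58 on the adult arrays. For Cdkn3 at ZT20 they were 7.002, 6.83, 7.75, 7.43 and 7.52 on the aged arrays, against 6.91, 6.61, 7.53, 7.45 and 7.58 on the adult arrays. Cdkn3 arrays of the 2 ages overlapped at both times. Tacc3 had levels of 6.87, 7.27, 6.79 and 6.80 on the aged arrays of ZT16, against 6.77, 6.86, 6.84, 6.78 and 6.61 on the adult arrays. For Tacc3 at ZT20 they were 6.995, 6.87, 7.23, 7.17 and 7.18 on the aged arrays, against 7.25, 6.97, 7.26, 6.97 and 7.23 on the adult arrays. Tacc3 arrays of the 2 ages overlapped at both times. Parpbp had levels of 6.28, 6.24, 6.30 and 5.82 on the aged arrays of ZT16, against 6.00, 5.94, 5.90, 5.70 and 5.81 on the adult arrays. For Parpbp at ZT20 they were 6.27, 5.87, 6.56, 6.12 and 6.20 on the aged arrays, against 5.84, 5.84, 6.33, 6.18 and 6.33 on the adult arrays. Parpbp arrays of the 2 ages overlapped at both times. Maob had levels of 8.24, 7.79, 7.07 and 7.73 on the aged arrays of ZT16, against 7.95, 7.72, 7.37, 6.31 and 7.13 on the adult arrays. For Maob at ZT20 they were 7.75, 7.84, 8.39, 8.76 and 8.29 on the aged arrays, against 8.12, 8.36, 8.04, 7.76 and 7.36 on the adult arrays. Maob arrays of the 2 ages overlapped at both times.

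Mitosis genes as a list had a median age difference of 0.07 under CR, with 20 of 23 higher in aged mice. Under CR the median was 0.16 at ZT16, with 22 of 23 higher, beside 0.04 over all tested genes. At ZT20 it was -0.02, with 10 higher and 13 lower, beside -0.02 over all tested genes. On control diet the dark phase median was -0.45, with 0 of 23 higher. The median of the diet difference was 0.53, beside 0.02 over all tested genes, and 15 of the 23 reached an unadjusted p under 0.05, where 1.56% of all tested genes did. None of the 23 passed the adjusted test. In the light phase under CR the median age difference of the list was 0.27, with 23 of 23 higher. The dark phase median under CR was 0.05 without aged replicate 2 of ZT16 and 0.03 without adult replicate 2 of ZT20. With 1 array left out it ran up to 0.10. Only CR arrays were left out in turn, so the control diet median and the diet difference were not checked in this way. The ZT20 median ran from -0.10 to 0.03 with 1 array left out, so its sign is not settled. Ttk, a spindle checkpoint kinase, differed by 0.35 (SE 0.16) under CR and -0.30 (SE 0.17) on control diet. Ube2c, a ubiquitin conjugating enzyme of the exit from mitosis, differed by 0.19 (SE 0.15) under CR and -0.42 (SE 0.16) on control diet. Under CR, Ube2c had levels of 8.67, 8.61, 8.80 and 8.64 on the aged arrays of ZT16, against 8.14, 8.31, 8.42, 8.46 and 8.58 on the adult arrays. For Ube2c at ZT20 they were 8.80, 8.69, 8.95, 8.58 and 8.61 on the aged arrays, against 8.24, 8.36, 8.99, 8.84 and 8.76 on the adult arrays. Ube2c arrays of the 2 ages overlapped at ZT20 but not at ZT16. The Ube2c difference under CR was 0.30 at ZT16 and 0.09 at ZT20.

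**Figure D5:**
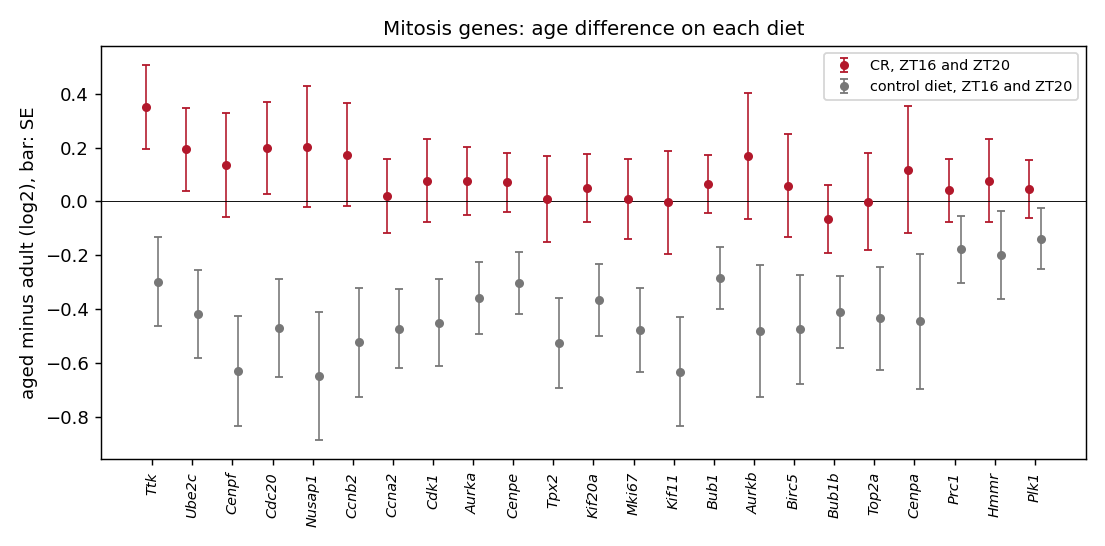
Aged minus adult difference (y, log2 units, bar: SE) of all 23 tested mitosis genes (x, ordered by p of the diet difference) in the dark phase, under CR (red) and on control diet (grey). All points on control diet lie below 0, with a median of -0.45, against 0.07 under CR; no gene passed the adjusted test of the difference.

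The dark phase was also set against the light phase under CR, as the age difference at ZT16 and ZT20 minus that at ZT4 and ZT8. The test gave 0 calls, and 575 genes (4.3%) had an unadjusted p under 0.05, with a smallest adjusted p of 0.999. In the light phase alone the age difference also gave 0 calls, with 731 genes (5.46%) below 0.05 unadjusted and a smallest adjusted p of 0.0921. Fosl2, an AP-1 transcription factor, differed by -0.32 (SE 0.14) in the dark phase and 0.46 (SE 0.15) in the light phase. Fosl2 had levels of 9.48, 9.03, 9.49 and 9.11 on the aged arrays of ZT16, against 9.88, 9.64, 9.75, 10.06 and 9.86 on the adult arrays. For Fosl2 at ZT20 they were 10.32, 10.15, 10.12, 9.46 and 10.26 on the aged arrays, against 10.48, 10.56, 9.97, 9.86 and 9.78 on the adult arrays. Fosl2 arrays of the 2 ages overlapped at ZT20 but not at ZT16. The Fosl2 difference was -0.56 at ZT16 and -0.07 at ZT20. Ass1, an enzyme of arginine synthesis, differed by 0.25 (SE 0.17) in the dark and -0.65 (SE 0.18) in the light phase. Klf13 differed by -0.27 (SE 0.12) in the dark and 0.32 (SE 0.13) in the light phase. For Dip2b the values were -0.11 (SE 0.09) in the dark and 0.35 (SE 0.09) in the light phase, and for Rec114 -0.22 (SE 0.17) in the dark and 0.62 (SE 0.18) in the light phase. Fancf, of the Fanconi DNA repair pathway, had 0.21 (SE 0.09) in the dark and -0.21 (SE 0.09) in the light phase. Ass1 had levels of 8.36, 8.72, 8.31 and 8.79 on the aged arrays of ZT16, against 8.02, 8.20, 7.93, 7.93 and 8.54 on the adult arrays. For Ass1 at ZT20 they were 7.53, 7.97, 8.03, 7.82 and 7.96 on the aged arrays, against 7.82, 8.07, 7.40, 7.31 and 8.30 on the adult arrays. Ass1 arrays of the 2 ages overlapped at both times. Dbp is given as a core clock gene, not for its p in this test. Dbp differed by 0.02 (SE 0.20) in the dark and -0.84 (SE 0.22) in the light phase. Neither value passed, nor did the difference between the phases. Dbp does not stand for its list. In the light phase the 18 core clock genes had a median of 0.02, with 11 higher and 7 lower in aged mice. In the dark phase their median was -0.09, with 4 higher and 14 lower.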

How the data were processed

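Expression was measured on Affymetrix mouse arrays in 24 groups of age, diet and time point. The deposited values are log2 levels from RMA, a version of which is not given in the submitters' processing notes, and no further normalization was applied. Array medians lay between 5.466 and 5.714. Amplification ran for 17 cycles from 25 ng of RNA, per the labels' protocols, which can distort levels. Of 45140 probe sets, 28898 have 1 symbol in GEO's platform annotation, 551 several, 15588 none, and 103 were controls. The brightest probe set stood for each of 17097 genes, of which 16936 matched RefSeq (GRCm38.p6). Genes under the 30th percentile of probe set means (4.73) were not tested, leaving 13383. Tests used limma 3.58.1 in R 4.3.3, checked on simulated data, with all arrays sharing 1 spread, Benjamini-Hochberg adjustment and a threshold of 0.05. The number of arrays limits the precision.

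The members, the 49 lists (858 genes, 658 tested) and the tests were chosen with earlier results of these data known. Named genes are the 10 smallest p of the dark phase comparison, since none passed, 6 for each other comparison, the core clock genes, and the 2 smallest p of each list described. Those 15 lists were picked after their medians were seen. The time and diet comparisons were added after the age result was seen. Symbols such as Gm numbers were left out.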

Additional observations from a re-analysis of the deposited data

Results flagged for a closer look

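Single arrays stood apart from the rest of their group for 16 of 296 gene and group pairs among the 74 genes checked, or 5.41%, where chance gives about 5% (1 in 20). The value given is the gap to the nearest array as a share of the group's range. Among the aged arrays of ZT16, Herpud1 was lowest on replicate 1 (0.845), Ndufa4 was highest on replicate 1 (0.878), Tacc3 was highest on replicate 2 (0.833), Csnk1d was lowest on replicate 4 (0.841), Parpbp was lowest on replicate 4 (0.871). Among the adult arrays of ZT16, Csnk1e was highest on replicate 4 (0.781), Gbp2 was highest on replicate 4 (0.747), Fancf was lowest on replicate 5 (0.784). Among the aged arrays of ZT20, Csnk1e was lowest on replicate 1 (0.765), Msmo1 was lowest on replicate 3 (0.729), Fosl2 was lowest on replicate 4 (0.756), Irf9 was highest on replicate 5 (0.739). Among the adult arrays of ZT20, Ndufa4 was lowest on replicate 1 (0.834), Ccdc117 was highest on replicate 2 (0.742), Postn was lowest on replicate 2 (0.787), Irf9 was highest on replicate 4 (0.822).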

How the results depend on the processing

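The dark phase age comparison called 0 genes under 31 of its 33 alternatives, with 105 to 711 genes at an unadjusted p under 0.05 over all of them. The exceptions used array weights estimated by limma. With all arrays weighted it called 4 genes (Atp10a, Fam167a, Postn and Slc39a8), at a smallest adjusted p of 0.029. The weight estimate stopped before converging there. With the 19 arrays weighted, an alternative chosen after seeing the data, it called 2 (Gna14 and Postn). ZT20 alone called 1 gene (Npy1r) with all arrays weighted, and ZT16 alone called 0 under its 20 alternatives. The differences between times, diets and phases called 0 under every alternative run. The time comparison called 1601 genes on the 19 arrays, against 59 with all arrays; the fit on 19 arrays has the smaller residual SD. Leaving out each array in turn gave 0 to 0 calls in each age comparison. The 10 named genes kept their direction under every alternative run, except that Otop3 was too dim to be tested under the stricter filter. Deviations from the group mean were compared between aged and adult arrays of the same replicate number, and their correlations were of both signs. The correlations were 0.57, 0.41, -0.33 and 0.25 at ZT16, and ran from -0.36 to 0.09 at ZT20. Pairs of unlike number were not set beside them, so these values cannot decide whether replicate numbers pair the samples. With the replicate block the dark phase comparison called 0 genes, and so did ZT16 and ZT20. Signal near background limits the dimmer genes, where changes are understated.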

Other observations

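Promoter windows from RefSeq (GRCm38.p6), 250 bases before to 50 after each gene's start, were searched on both strands for 6 motifs, chosen after the results were seen. The E-box CACGTG lay in 1 of 10 windows of the 10 genes of smallest dark phase p (Slc39a8), in 5 of 23 windows of core clock genes (21.7%) and in 7.15% of all 32851 windows. TTTGAA, part of a cell cycle element, lay in 2 of the 10 (Postn and Slc39a8), in 0 of the 23 and in 17.9% of all windows. The D-box TTATGTAA lay in 0 of the 10, in 1 of the 23 (Per3) and in 0.938% of all windows. One form each of the glucocorticoid response element, the endoplasmic reticulum stress element and the sterol element lay in none of either set and in 0.00913%, 0.119% and 0.0913% of all windows. The table held windows for 6 of the 10 genes and 15 of the 18 clock genes. These are letter matches, and nothing follows from them about a factor.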
